A study of Arabidopsis thaliana with 6 samples.

Results

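The plastid-encoded genes were taken as every row of the deposited expression table whose gene ID starts with ATCG, which gave 88 of 20423 genes, beside 120 rows of mitochondrial and 20215 of nuclear genes. The table compares roots of wild type Col-0 Arabidopsis thaliana, collected from seedlings 3 days after germination. Seedlings were held for 6 h in liquid 1/2 MS medium, either without additions (control) or with the auxin IAA (indole-3-acetic acid) at 1 µM. Each group has 3 libraries, each pooled from about 100 roots, and both groups shared the long-day light regime and the vertical plates on which they grew. Per gene the table holds 1 authors' mean of normalized read counts for each group. No value of a single library was analysed here, and the p-values that the authors deposited were not used. No difference between the groups is therefore set against the spread between replicates, no test was run, and every comparison is a description of 2 means.

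Plastids descend from a cyanobacterium and keep a small circular genome of their own. It encodes subunits of the photosynthetic complexes, of an NDH complex that passes electrons around photosystem I, of the plastid ribosome and of an RNA polymerase, besides ribosomal and transfer RNAs. The other subunits of the same complexes, and the factors that switch on plastid transcription, are encoded in the nucleus and imported. Root plastids are mostly colourless, but they hold the same genome as the green chloroplasts of leaves and use it to make their own ribosomes and some of their proteins. In a bulk sample, fewer plastids or plastid-bearing cells and less RNA per plastid cannot be told apart.

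The label of the tissue was checked against marker genes. All 7 root markers were rows of the table and none was listed at 0. SCR, a regulator of the root ground tissue, had means of 30.95 in control and 37.56 after IAA, and CASP1, which organizes the Casparian strip of the endodermis, had 59.82 and 12.32. The root hair gene SHV2 had 20.85 and 0.43, and the epidermal regulator MYB66 had 9.11 and 2.01. The remaining root markers were SHR (23.97 and 16.87) and, at low means, PLT1 (2.99 and 4.15) and PLT2 (1.18 and 2.38). The summed mean of the 7 root markers was 148.9 in control and 75.72 after IAA, and CASP1 and SHV2 made up most of that drop. Of 5 markers of green shoot tissue, 4 were rows, with a summed mean of 81.4 in control and 9.56 after IAA. Transcripts of green tissue were therefore present. In control CAB1 (32.36) and CAB2 (28.73) had means close to that of SCR, and after IAA they had 3.77 and 3.29. The summed means of both marker lists were lower after IAA. The root markers SCR, PLT1 and PLT2 had higher means, but the counting intervals of their ratios, explained below, hold 1. They were 0.844 to 1.75 for SCR, 0.420 to 5.02 for PLT1 and 0.361 to 20.5 for PLT2. The interval of SHR, which had a lower mean, also holds 1 (0.443 to 1.14).

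In the TAIR10.1 reference the plastid chromosome has 154478 bases and 131 annotated gene features, of which 87 are protein-coding, 7 ribosomal RNAs and 37 transfer RNAs. Separate parts of rps12 are listed as features of their own under each of its locus tags, so the genes are fewer than the features. Gene names are used for 6 of the 88 IDs, and the other 82 are described by their ID or their values. The names rest on notes of the reference to nuclear relatives that cite the plastid ID. The sequence of each nuclear relative was then matched to the plastid genes, and each had 1 plastid match. Identity was 88.2% for ndhJ, and over translated stretches it ran from 36.5% (cemA) to 54.2% (rpl2) for the others. The note for ATCG00430 calls it photosystem II reaction center protein G, so its name ndhK rests on the match (47.3%) and not on the note. The 6 genes encode ribosomal proteins (rpl2, rpl20), NDH subunits (ndhJ, ndhK), the proteolytic subunit of the Clp protease of the stroma (clpP) and an envelope membrane protein (cemA). Matches were kept for these 6 genes only, so they are a chosen set, and whether the notes name further IDs is not shown here. Without names for all rows, no grouping by complex was made.

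The plastid chromosome carries a large repeat in both orientations, and the repeat is visible in the table. Its copies span 26264 bases each, Pltd:84171-110434 and Pltd:128215-154478 in TAIR10.1. The gene rpl2, which encodes a protein at the heart of the large ribosomal subunit, lies in both. Its first 60 coding bases are shown at both places because they do not differ by a single base, with the start codon in capitals. The first copy is at Pltd:85784-85843 on the minus strand and the second at Pltd:152806-152865 on the plus strand.
rpl2, first copy: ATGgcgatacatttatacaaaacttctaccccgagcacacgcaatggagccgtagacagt
rpl2, second copy: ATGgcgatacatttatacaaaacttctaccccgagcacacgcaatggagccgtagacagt

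In the table, 14 of the 88 plastid rows formed 7 pairs with the same mean in both groups to the last decimal, which leaves 81 distinct rows. The pairs are mirrored in the order of the IDs, so that the first ID of a pair at one end goes with the last ID at the other. The row of rpl2, ATCG01310, had a mean of 484.13 in control and 523.93 after IAA, and ATCG00830 held the same values. At an average of both means of at least 10, the share of rows with an identical row was 16.47% in the plastid (14 of 85). It was 5.405% in the mitochondrion (4 of 74) and 1.211% in the nucleus (133 of 10980, genes listed at 0 in 1 group included).

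The reference has 7 protein-coding plastid symbols at 2 loci, and 6 of them have identical coding copies (ndhB, rpl2, rpl23, rps12, rps7 and ycf2). There are thus 7 pairs of rows against 6 symbols with identical coding copies, and the seventh symbol, ycf1, has copies of unequal length. Which genes the other 6 pairs are was not determined. Of 87 protein-coding features, 58 could be identified by any read of 60 bases, the read length of the study, 17 by some and 12 by none. The part of rps12 outside the repeat is listed under both locus tags and so is counted more than once among the 58. No 60-base window of rpl2 was unique in the genome, while every window of the other 5 named genes was. The study's methods state that only uniquely mapped reads were counted, yet both rows of rpl2 had a mean of 484.13 in control. How reads from the repeat were counted is not given in the sources used here, and sums over all 88 rows may count such reads more than once. Counts are therefore given both for all rows and with each pair taken once.

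Plastid RNA was detected in both groups at every row, and no row was listed at 0. Among the distinct rows the mean ranged from 2.45 to 2478.59 in control, with a median of 100.3, and from 7.67 to 1801.05 after IAA, with a median of 103.2. The median over all 20423 genes was 11.15 in control and 11.51 after IAA. The typical plastid row thus lay well above the typical gene in reads, which are not divided by gene length. Low values in the table are not continuous. In the control column they are sums of 0.59 and 0.6325, in the IAA column of 0.3665 and 0.426, which are taken as what 1 read adds to the mean. Of the values under 2, 100% fell on such sums within 0.0051. The steps turn each mean into the fewest reads behind it, which ran from 4 to 3919 in control and from 18 to 4228 after IAA over the plastid rows. From those reads a 95% Clopper-Pearson interval was computed for each ratio of IAA to control. It covers counting error only and not the spread between seedlings or libraries, and PCR copies of 1 molecule count as separate reads in it.

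**Figure D1:**
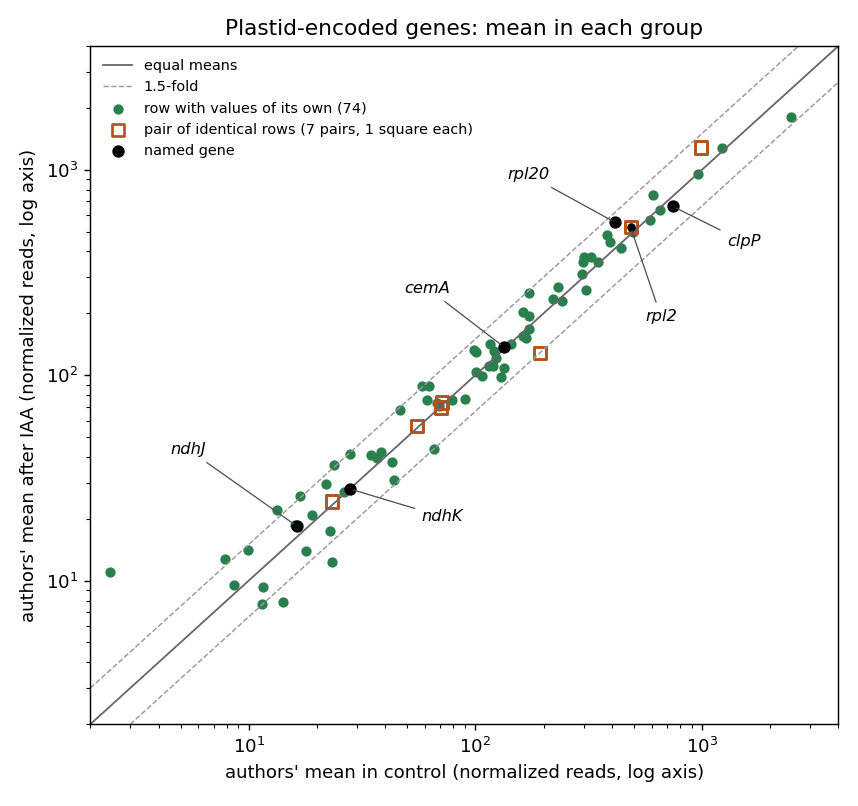
Authors' mean of each plastid-encoded row in control (x axis) and after IAA (y axis), in normalized reads on log axes. Green points are 74 rows with values of their own, squares are the 7 pairs of identical rows, black points are the 6 named genes, and dashed lines mark 1.5-fold. Most rows lie between the dashed lines, and the row at the far left had means of 2.45 and 10.96.

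The levels kept their order between the groups. Across the 81 distinct rows the Spearman correlation of the means was 0.985, a description over genes that share libraries and are not replicates. Of the 10 most abundant rows in control, 9 were among the 10 most abundant after IAA. The 5 most abundant took 36.54% of the plastid sum in control and 33.9% after IAA, so a few rows carried much of the plastid read count in both groups. These means are not divided by gene length, so they do not give shares of RNA molecules.

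Plastid rows as a whole had nearly the same sum in both groups. It was 19404.39 in control and 20037.71 after IAA, a ratio of 1.03 with a counting interval of 1.02 to 1.05. With each pair counted once the ratio was 1.02 (1.005 to 1.036). As a share of all means, plastid rows made up 2.11% (counting interval 2.09% to 2.13%) in control and 2.29% (2.27% to 2.31%) after IAA. The 2 shares differ by more than the ratio of sums because the sum over all genes was lower after IAA, at 873653.61 against 919275.04.

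The most abundant plastid row moved against this sum. ATCG00020 had a mean of 2478.59 in control and 1801.05 after IAA, a ratio of 0.727 with a counting interval of 0.696 to 0.759. It made up 12.8% of the plastid sum in control and 8.99% after IAA. Without it the sum of the other plastid rows was 16925.80 in control and 18236.66 after IAA, a ratio of 1.08 (1.06 to 1.09). Its lower mean thus offset part of the higher sum of the others.

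Few plastid rows passed a fold of 1.5. Of 85 rows with an average of at least 10, 5 were at least 1.5-fold higher after IAA and 5 at least 1.5-fold lower, or 5.882% in each direction. Over all 11132 genes at that average, 23.6% were higher and 21.9% lower by the same rule. Mitochondrial genes had similarly few, with 5 of 74 higher (6.757%) and 2 lower (2.703%), so the low share is not particular to plastid rows. With pairs counted once, 5 of 78 plastid genes were higher and 4 lower. The ratios ran from 0.529 to 1.65, against 0.00663 to 88.7 in the nucleus. The SD of the log2 ratio across genes was 0.33 over plastid rows, 0.43 over mitochondrial and 1.08 over nuclear genes. On the log2 scale, 82.05% of the distinct plastid genes (64 of 78) lay within 0.5 of no difference, against 48.14% of nuclear genes.

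The narrow spread was present at each level of expression and was tightest where most reads were counted. Mitochondrial genes were not split by level. Among genes with an average of 10 to 30, 5 of 16 plastid genes (31.25%) and 48.62% of 5681 nuclear genes were past 1.5-fold in either direction. Between 30 and 100 it was 3 of 19 (15.79%) against 42.04%, and between 100 and 300 it was 1 of 24 (4.167%) against 46.47%. At 300 and above, 0 of 19 plastid genes and 129 of 277 nuclear genes (46.57%) were past 1.5-fold. In that top class the log2 ratios of plastid genes had an SD of 0.22, while the typical counting error of 1 gene was 0.07. The plastid genes therefore differed among themselves by more than counting alone gives, although by less than nuclear genes, whose SD was 1.18 at the same counting error.

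**Figure D2:**
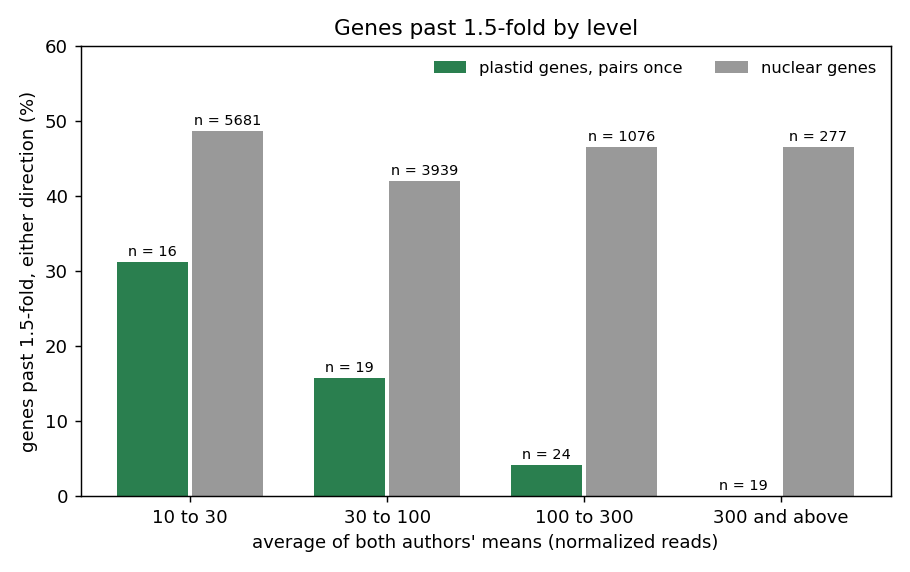
Share of genes past 1.5-fold in either direction (y axis, %) by the average of both authors' means in normalized reads (x axis), for plastid genes with pairs counted once (green) and nuclear genes (grey), with the number of genes above each bar. The plastid share was 31.25% in the lowest class and 0 of 19 in the highest, while the nuclear share lay between 42.04% and 48.62%.

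The rows past 1.5-fold were mostly low. The largest ratio at an average of at least 10 was that of ATCG00650, with means of 13.37 and 22.07 and a ratio of 1.65 (counting interval 0.987 to 2.91), which holds 1. ATCG01070 had means of 57.96 and 88.5, a ratio of 1.53 (1.19 to 1.97). The smallest ratio was that of ATCG00570, with means of 23.38 and 12.37, or 0.529 (0.313 to 0.882). The highest of the 9 distinct genes past the fold by level was a pair of identical rows with means of 192.65 and 128.08, a ratio of 0.665 (0.565 to 0.782). That pair was also the last row inside the fold on the lower side, and the next outside had a ratio of 0.704. On the higher side the first row inside had a ratio of 1.52 and the last outside 1.47. The row with the lowest control mean stood outside this count because its average was under 10. Its means of 2.45 and 10.96 gave a ratio of 4.47 (1.52 to 17.3) from 4 reads in control and 26 after IAA.

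By the counting interval alone, 20 of 85 plastid rows were above 1 and 10 below (19 and 9 of 78 with pairs counted once). Over all genes at that average, 24.2% lay above and 23.6% below. The plastid rows above 1 thus came near the share over all genes, and those below 1 were fewer. These shares were not matched by level. An interval leaves out 1 more readily where more reads were counted, and the typical plastid row lay above the typical gene. Of the 85 rows, 53 had a ratio above 1 and 32 a ratio below 1 (48 and 30 of 78 with pairs once), and the median log2 ratio was 0.05. These small ratios depend on the scale of the means, since raising the IAA means to equal nuclear sums adds 0.07 to every log2 ratio.

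**Figure D3:**
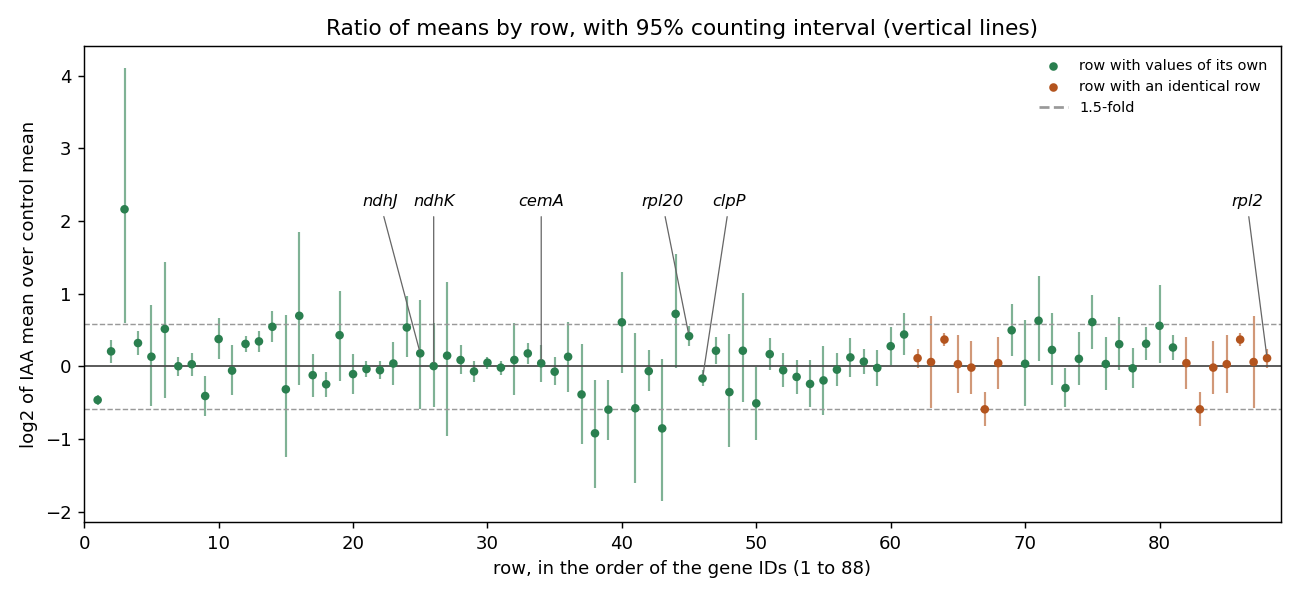
log2 of the IAA mean over the control mean (y axis) for the 88 plastid-encoded rows in the order of their IDs (x axis), with 95% counting intervals as vertical lines and dashed lines at 1.5-fold. Orange rows have an identical row, and the 6 named genes are marked. Most rows lie within the dashed lines, and the third row, with 4 reads behind its control mean, lies far above them.

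Position along the IDs was set against the ratio. The 61 rows before the first pair had a ratio of sums of 0.994 (0.978 to 1.011), with 34 rows above 1 and 27 below. The 13 rows between the copies of the pairs, ATCG01000 to ATCG01130, had a ratio of sums of 1.16 (1.09 to 1.23). Of these 13 rows, 11 had a ratio above 1 and 2 a ratio below 1, with a range of 0.814 to 1.55 and a median log2 ratio of 0.26. The 7 pairs, counted once, had a ratio of sums of 1.14 (1.092 to 1.196), with 5 above 1 and 2 below and a median log2 ratio of 0.05. The pair with the highest mean had 991.1 in control and 1280.9 after IAA, a ratio of 1.29 (1.22 to 1.37). Without it the sum of the other 6 pairs was 896.8 in control and 875.8 after IAA, a ratio of 0.977 (0.912 to 1.046), so the higher sum of the pairs rests on that pair alone. The blocks were chosen from the pairs and not from the ratios, but no test of their difference could be made.

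Of the 2 named genes of the plastid ribosome, the larger ratio was that of rpl20 (ATCG00660), a protein of the large subunit. It had a mean of 414.2 in control and 553.26 after IAA, a ratio of 1.34 (1.22 to 1.47), or 0.42 on the log2 scale, from at least 655 and 1299 reads. The ratio of rpl2 was 1.08 (0.989 to 1.19), an interval that holds 1 and does not overlap that of rpl20. Raised to equal nuclear sums, the interval of rpl2 was 1.040 to 1.248 and left out 1, still below that of rpl20 at 1.28 to 1.55.

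rpl20 and clpP lie close together on the minus strand, and their starts are shown because these nearby genes, with an exon of rps12 between them, had ratios on opposite sides of 1. In TAIR10.1, rpl20 is at Pltd:68512-68865 and has 1 coding exon, and clpP is at Pltd:69910-71882 and has 3. The start codon is in capitals, and the stretches shown are Pltd:68806-68865 and Pltd:71823-71882, both on the minus strand.
rpl20: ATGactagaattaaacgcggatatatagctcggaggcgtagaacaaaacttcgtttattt
clpP: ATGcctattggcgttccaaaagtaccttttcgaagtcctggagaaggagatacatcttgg

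clpP (ATCG00670) encodes the plastid-made proteolytic subunit of Clp, the main protease of the plastid stroma, and is known from tobacco to be essential for shoot development. Its mean was 742.67 in control and 662.32 after IAA, a ratio of 0.892 (0.827 to 0.963), from at least 1174 and 1555 reads. With the IAA means raised to equal nuclear sums the interval was 0.869 to 1.01 and held 1. The intervals of rpl20 and clpP do not overlap. Whether this gap exceeds the spread between libraries was not tested.

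The named NDH genes, ndhJ and ndhK, both lay below the plastid median of 100.3 in control, and the other NDH genes have no named row. ndhJ (ATCG00420; Pltd:48677-49153, minus strand) had means of 16.27 and 18.44, a ratio of 1.13 (0.669 to 1.89). ndhK (ATCG00430; Pltd:49257-49934, minus strand), its neighbour, had 27.87 and 27.97, a ratio of 1.00 (0.680 to 1.51). With 26 and 44 reads in control behind ndhJ and ndhK, a difference smaller than about the width of these intervals was not detectable at this depth. cemA (ATCG00530; Pltd:60741-61430, plus strand), which encodes a protein of the inner envelope that in the alga Chlamydomonas supports uptake of inorganic carbon, had 133.28 and 137.44, a ratio of 1.03 (0.864 to 1.23).

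Levels between these genes were compared per kilobase of coding length. In control, clpP had 1257 normalized reads per kb, rpl20 1170, rpl2 587, cemA 193, ndhK 41.1 and ndhJ 34.1. After IAA, rpl20 had 1563 and clpP 1121, so the first and second places were exchanged, while the order of the other 4 stayed the same. Whether neighbours in this order differ beyond the spread between libraries cannot be said from 1 mean per group.

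Nuclear genes whose products work in plastids gave a different picture from the plastid rows. A list of 31 nuclear genes for subunits of Rubisco, both photosystems, the cytochrome b6f complex and the ATP synthase had a summed mean of 500.1 in control and 160.3 after IAA. At an average of at least 10 there were 11 of them, of which 10 were at least 1.5-fold lower after IAA and 0 higher, with a median log2 ratio of -1.63. Over all genes at that average 21.9% were lower and 23.6% higher. PSAF, PSAN, PSBO2, PSBR, PSBX, PETC and ATPD reached that average only through their control means, with IAA means from 1.7 to 9.2. Their place in this count therefore rests on the group where they were high. PSBO1, which stabilizes the manganese cluster of photosystem II, had means of 85.02 and 56.11. PSBP-1, another protein of the oxygen-evolving complex, had 49.17 and 11.1, and PSBR, also of photosystem II, had 49.26 and 8.22. PETC, the Rieske iron-sulfur protein of cytochrome b6f, had 18.35 and 1.7. The exception was PDE334, an ATP synthase subunit, with 13.87 and 14.88. In addition, 4 photosystem I genes were listed at 0 after IAA, with control means of 2.4 to 9.34. The light-harvesting genes CAB1 (32.36 and 3.77) and CAB2 (28.73 and 3.29), which mark green tissue, moved with this list, and their part in the result was not tested.

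Genes for plastid transcription and RNA stability were mixed. Of 25 on the list, 24 were rows and 11 reached an average of 10, of which 5 were at least 1.5-fold higher after IAA and 1 lower, with a median log2 ratio of 0.28. The shares over all genes were 23.6% higher and 21.9% lower. The higher genes were an organelle-targeted phage-type RNA polymerase (AT5G15700, 9.65 and 22.66), the polymerase-associated PTAC12 (5.48 and 20.91), PTAC6 (9.06 and 14.75) and MURE (16.59 and 29.28), and RIF10, a plastid polynucleotide phosphorylase that trims RNA ends (16.59 and 27.91). SIGE, a sigma factor that directs the plastid-encoded polymerase to promoters, was lower (14.41 and 8.54). The counting intervals of SIGE (0.305 to 1.12) and PTAC6 (0.883 to 3.39) hold 1. AT5G15700, PTAC12 and PTAC6 reached the average of 10 only through their IAA means, and SIGE only through its control mean. The sigma factor SIG2 (9.65 and 11.75), within 1.5-fold, also reached it only through its IAA mean. Another sigma factor, SIGC, had 13.01 and 2.68, a ratio of 0.206 (0.0635 to 0.493), but its average was under 10. Also under 10 were the polymerase-associated FLN1 (2.49 and 13.54), FLN2 (3.72 and 15.11) and PTAC14 (2.99 and 9.45), with intervals above 1. In the same class and under 10, PDE312 (11.42 and 6.82) and PTAC7 (7.89 and 4.02) were lower. FSD2, FSD3 and TRX z were higher there, and the sigma factor SIGF (8.66 and 4.33) was lower. The intervals of these last 6 genes hold 1. Summed means were 103 in control and 155.4 after IAA for the 13 polymerase-associated genes, and 65.22 and 50.58 for the sigma factors. SCA3, the phage-type polymerase of plastids, had 20.94 and 19.49. The plastid-encoded genes, with a median log2 ratio of 0.05 over 78 distinct genes, lay between the medians of the 2 nuclear lists. Both nuclear medians include genes that reached the average only through the group where they were high, so this order is a description and was not tested.

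**Figure D4:**
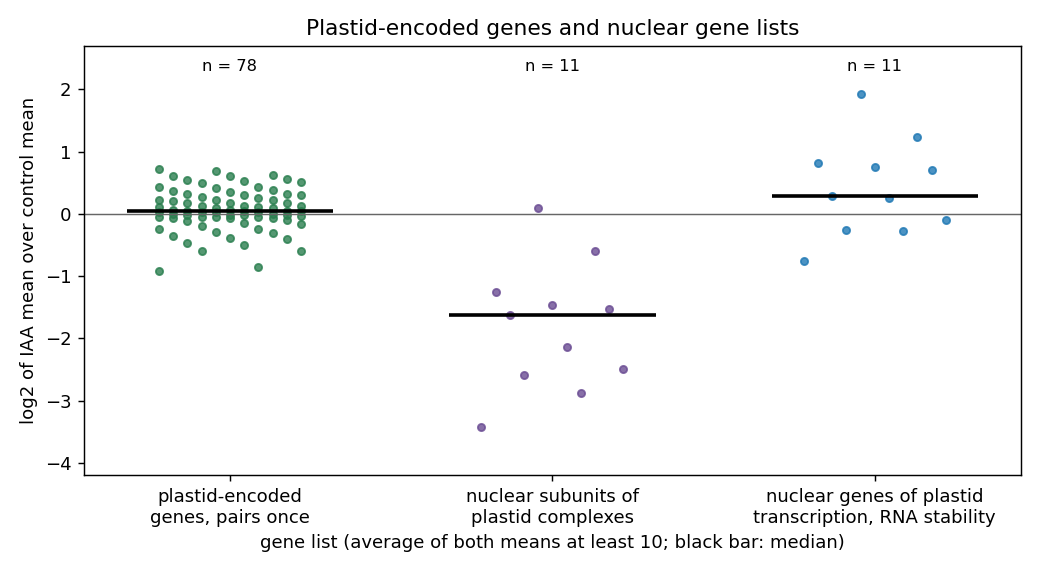
log2 of the IAA mean over the control mean (y axis) for 78 distinct plastid-encoded genes, 11 nuclear genes for subunits of plastid complexes and 11 nuclear genes for plastid transcription and RNA stability, all with an average of at least 10. Each point is a gene and black bars are medians, at 0.05, -1.63 and 0.28. Some nuclear genes reached that average only through the group where they were high. The plastid-encoded genes are shown together and not split by complex.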

How the data were processed

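According to the study's methods, ribosomal RNA was depleted, barcoded fragment libraries were sequenced as 60-base SOLiD reads, and SHRiMP placed them on TAIR10. Reads with a single placement were counted per gene by HTSeq, and DESeq was used to detect differential expression (both tools and the build also stand in the submitters' processing notes). The methods do not say how the counts were scaled. Whether strand was used in counting is not given in the sources used here. The deposited signal values are the authors' means of normalized counts per group. The steps of low values fit sums of 2 values per group, whereas the labels give 3 libraries, and the number of libraries behind a mean is not given. The table also holds the authors' fold changes and p-values, which were not used.

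Genes with an average of both means of at least 10 and a ratio of at least 1.5 in either direction were counted. Ratios are IAA over control, with no pseudocount in the main values. Reads per mean were taken as the mean divided by the larger step, and Clopper-Pearson 95% intervals were derived from them. Names came from TAIR10.1 notes matched with BLAST+ 2.17.0, and sequences and 60-base windows from the same RefSeq build. The named-gene rule asked for genes by complex and by level per kb, and was applied only to the 6 IDs whose names were kept. Of the other 82, the highest and lowest ratios, the most abundant row and 1 further row with a higher mean were given by ID. These were picked after their values were seen. A further item is not reported here. Members and gene lists were chosen with earlier results of these data known. Steps were tested on simulated data. The software was Python 3.11.15 with scipy 1.17.1, pandas 2.3.3, matplotlib 3.10.9 and numpy 2.4.6.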

Additional observations from a re-analysis of the deposited data

How the results depend on the processing

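The counts of plastid rows past the fold are small and depend on the threshold. Against 5 higher and 5 lower, a minimum average of 20 gave 3 and 3, a smaller fold threshold gave 18 and 10, and a fold of 2 gave 0 and 0. Raising the IAA means to equal nuclear sums gave 9 higher and 2 lower, and moved the median log2 ratio from 0.05 to 0.12. Scaling to equal plastid sums gave 2 higher, scaling to the median nuclear gene gave 2 lower, and requiring the counting interval to leave out 1 gave 2 higher. The plastid share of 2.11% in control and 2.29% after IAA became 2.51% and 2.60% without the 10 most abundant nuclear genes, 2.25% and 2.43% without mitochondrial genes, and 1.84% and 2.09% without the most abundant plastid gene. With identical rows counted once, an alternative chosen after seeing the data, it was 1.91% and 2.05%. The log2 ratios of the 6 named genes stayed within their counting intervals, but under equal plastid sums those of ndhK (0.01 to -0.04) and cemA (0.04 to -0.002) changed sign. Under equal nuclear sums the interval of clpP came to hold 1 and that of rpl2 to leave it out.

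No paired analysis was possible because the table holds only group means, and for the same reason no fit without a replicate was run. Restriction to protein-coding rows, sums by complex and their order per kb were not run, since names were kept for only 6 IDs.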
